A study of Mus musculus with 8 samples.

Results

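Loss of STAT6 in helper T cells that still carried T-bet was read from 2 STAT6-null libraries set against 2 WT libraries, out of 8 libraries in the series. All 10281 genes that reached 1 FPKM in at least 2 of the 8 libraries were compared, out of 11841 gene symbols in the deposited table. The groups were STAT6-/- (called STAT6-null), T-bet-/- (T-bet-null), T-bet-/- STAT6-/- (double-null) and wild type (WT), with 2 libraries each, and all mice were of the BALB/cAJcl strain. The cells were CD44+ CD4+ T cells, that is, antigen-experienced helper T cells, taken from lymph nodes that drain the skin. All 4 groups received PMA with ionomycin over 2 h before the RNA was isolated, so no resting cells were measured. PMA and ionomycin bypass the T cell receptor and trigger whatever cytokine genes a cell holds ready. The sources used here do not give the age and sex of the mice, the exons removed by each allele or how many animals a library holds. No label ties the paired libraries of a genotype to different animals, so each p-value reflects only how far these samples spread, and that spread may be technical.

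STAT6 is the transcription factor activated by IL-4 and IL-13. Binding of IL-4 to its receptor activates the kinases JAK1 and JAK3, which phosphorylate STAT6, and STAT6 then enters the nucleus and favours GATA3 and the Th2 programme. T-bet, encoded by Tbx21, drives the opposite Th1 programme, with IFN-γ and CXCR3, and it restrains GATA3. In mice that lack STAT6 alone, T-bet therefore acts without this counterpart, whereas the double-null mice lack both.

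Values are FPKM, that is, fragments scaled to transcript length and to library size. Differences are on the log2(FPKM + 1) scale, as STAT6-null minus the other genotype, and they understate the change of low genes. A gene is called at an adjusted p under 0.05 by limma, with Benjamini-Hochberg adjustment over all genes tested. Relative sequencing depth, read from the steps of low values, lay between 0.856 and 1.04 of the first WT library. The libraries of a genotype resembled each other closely, with Pearson r of log2(FPKM + 1) across genes of 0.9965 to 0.9977. The STAT6-null libraries stood at r of 0.9829 to 0.9888 with the libraries of the other mutants and at 0.942 to 0.9484 with WT, so WT stood apart from all 3 mutants.

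Markers of other cells also differed between WT and the mutants. The 7 listed markers of CD4 T cells summed to 1846 and 1840.0 FPKM in STAT6-null libraries and to 2127 and 2087 in WT. The 2 of 9 erythroid markers that the table lists summed to 6.53 and 2.65 FPKM in STAT6-null libraries, against 442 and 224 in WT. For 5 of 10 myeloid markers the sums were 78.5 and 79.1 FPKM in STAT6-null and 123.9 and 123.7 in WT libraries, and for 4 of 5 sex-linked markers, all on the Y chromosome, they were 43.15 and 37.3 against 103.7 and 110.0. The 6 listed B cell markers of 8 gave 8.09 and 3.26 FPKM against 7.57 and 4.80, and the 1 listed CD8 marker, Cd8b1, gave 4.10 and 3.02 against 5.60 and 4.90. The 2 of 6 stroma and endothelium markers that are listed summed to 8.15 and 8.78 FPKM in STAT6-null libraries, against 26.0 and 24.2 in WT, and the 2 of 6 dendritic cell markers to 3.59 and 3.19 against 7.05 and 7.56. The T-bet-null and double-null libraries lay between 2.63 and 7.48 FPKM for the erythroid sum and between 29.5 and 67.9 for the sex-linked sum. The part of these markers in the differences from WT was not tested. In bulk RNA, fewer cells of a type and less RNA per cell cannot be told apart.

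Stat6 fell in the libraries labelled as lacking it, but its transcript was not absent. It stood at 31.6 and 29 FPKM in STAT6-null, 88.8 and 89.8 in T-bet-null, 29.6 and 26.9 in double-null and 89.9 and 90.9 in WT libraries (chr 10, 127642955-127660987). The 4 libraries that lack STAT6 lay below the 4 that carry it, with no overlap. The difference from WT was -1.55 ± 0.063 (log2 ± SE, adjusted p = 2.12e-07), and that from double-null cells was 0.10 (adjusted p = 0.302).

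The first question was how much of the change against WT was particular to STAT6-null cells. Against WT, 3591 genes were higher in STAT6-null cells (34.9% of those tested) and 3709 were lower (36.1%). Of these, 467 were at least 2-fold higher (4.54%) and 572 at least 2-fold lower (5.56%), on the log2 scale a size of 1 or more. For comparison, 34.2% of genes were higher and 36.3% lower in T-bet-null than in WT cells, and 36.3% were higher and 36.7% lower in double-null cells. These 3 comparisons share the same 2 WT libraries. The direct comparisons of STAT6-null cells with the other mutants use no WT mean. Against T-bet-null cells 12.3% of genes were higher and 14.9% lower, and against double-null cells 8.63% were higher and 11.3% lower. Between the double-null and T-bet-null genotypes, which differ in STAT6 only, 16.4% were higher and 16.2% lower in double-null cells.

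The 1039 changes of at least 2-fold were sorted by what the other mutants did. A change counted as shared when T-bet-null and double-null cells were both called the same way against WT, and 973 of 1039 were shared (93.6%), 421 of them higher and 552 lower. It counted as particular to STAT6-null cells when neither other mutant was called that way against WT and STAT6-null cells were also called apart from each of them, which left 16 genes (1.54%), 14 higher and 2 lower. It counted as common to both genotypes that lack STAT6 when double-null cells were called with it and T-bet-null cells were not, and when both differed from T-bet-null cells. That gave 38 genes (3.66%), 29 higher and 9 lower. The other 12 genes, 3 higher and 9 lower, met none of these definitions. Membership rests on these comparisons, so within a class the directions and the gaps between genotypes follow in large part from the choice and are given as a description. In 15 genes, all raised, T-bet-null cells were called below WT. The threshold of 2-fold runs through a dense stretch of genes: Stk4 lay just inside it at a size of 1.00009 and Crebl2 just outside at 0.99969, and 571 called genes lay within 0.1 of the threshold.

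The 14 genes raised in STAT6-null cells only held Th1 genes, chemokines and targets of IFN-γ. Tbx21, which encodes T-bet, stood at 102 and 92.05 FPKM in STAT6-null, 1.44 and 1.535 in T-bet-null, 2.49 and 2.095 in double-null and 30.8 and 31.6 in WT libraries, 3.11 times the WT mean. Ifng, the Th1 cytokine, stood at 3516 and 3704 FPKM in STAT6-null, 32.4 and 33.9 in T-bet-null, 16 and 17.8 in double-null and 1029 and 1250.0 in WT libraries. Cxcr3, a receptor that guides Th1 cells to inflamed tissue, stood at 254 and 251 FPKM in STAT6-null, 7.13 and 8.24 in T-bet-null, 15.7 and 16.4 in double-null and 109 and 127 in WT libraries. All 3 had their highest values in the STAT6-null libraries and their lowest where T-bet was missing. Tbx21 is itself the gene deleted in the T-bet-null and double-null genotypes. Its low values there, and with them its place in this class, thus follow from the design. The differences from WT were 1.605 ± 0.078 for Tbx21 (adjusted p = 4.52e-07), 1.67 ± 0.092 for Ifng (adjusted p = 8.43e-07) and 1.10 ± 0.084 for Cxcr3 (adjusted p = 5.02e-06).

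Chemokines made up a further group of the 14. Ccl3 and Ccl4 encode inflammatory chemokines that attract effector cells. Ccl3 stood at 226 and 189.9 FPKM in STAT6-null, 25 and 26.9 in T-bet-null, 12.4 and 13.2 in double-null and 75.7 and 71.1 in WT libraries (difference from WT 1.48 ± 0.084, adjusted p = 9.54e-07). Ccl4 stood at 503 and 460.1 FPKM in STAT6-null, 72.7 and 66.5 in T-bet-null, 81.85 and 82.3 in double-null and 209 and 203 in WT libraries (1.22 ± 0.064, adjusted p = 6.43e-07). The annotated spans of these neighbours overlap on chr 11 (83647843-83649378 and 83648624-83664683). The sources used here do not say whether strand was kept, so part of their fragments cannot be told apart. Ccl1, the ligand of CCR8, stood at 752 and 776 FPKM in STAT6-null, 265 and 258 in T-bet-null, 274 and 233 in double-null and 301.5 and 296 in WT libraries. Its 6 libraries outside the STAT6-null genotype thus lay within 232.6 to 301.5 FPKM, and both STAT6-null libraries lay above them (1.35 ± 0.075, adjusted p = 8.82e-07). Ccl1 was called lower than WT in T-bet-null cells (-0.19, adjusted p = 0.0456) and in double-null cells (-0.24, adjusted p = 0.0165).

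**Figure D1:**
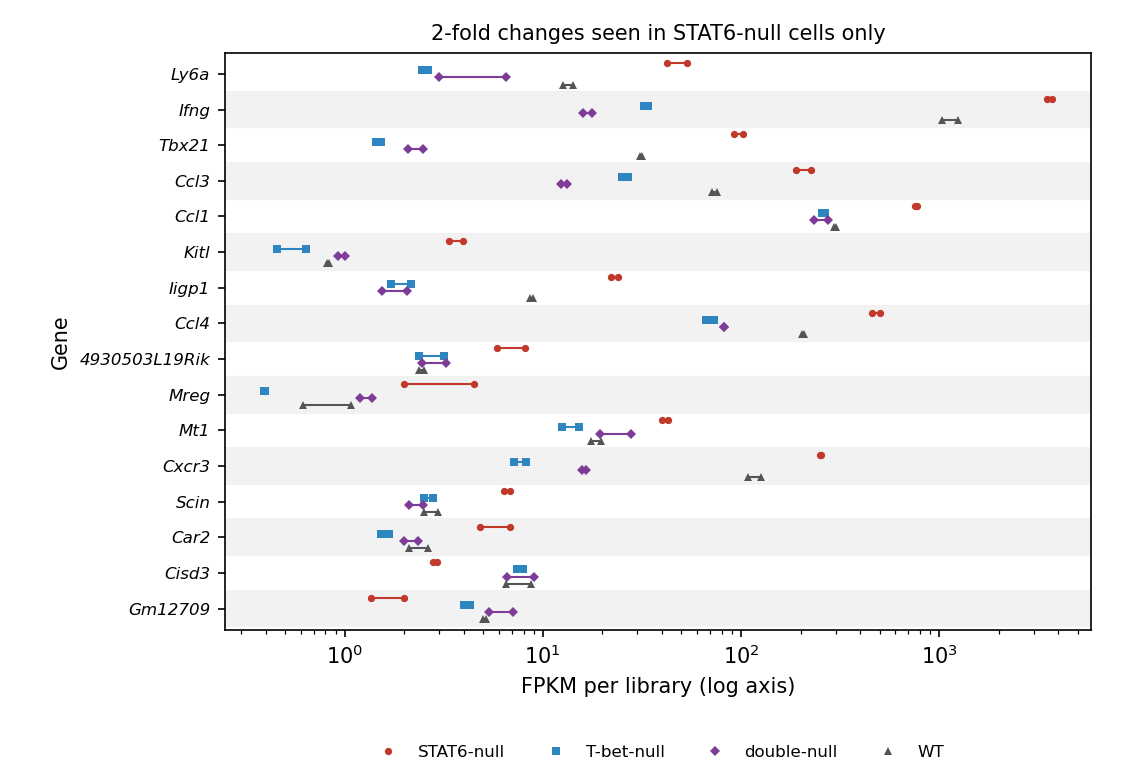
FPKM per library (log axis) of the 16 genes with a 2-fold change in STAT6-null cells only, ordered by the difference from WT; each point is a library and a line joins the 2 libraries of a genotype. The STAT6-null points lie to the right of all others for the upper 14 genes and to the left for Cisd3 and Gm12709.

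Ly6a, which encodes the surface protein Sca-1, and Iigp1, a GTPase induced by IFN-γ, also belonged here. Ly6a stood at 42.1 and 53.6 FPKM in STAT6-null, 2.63 and 2.45 in T-bet-null, 2.98 and 6.49 in double-null and 12.7 and 14.2 in WT libraries. Iigp1 stood at 22 and 23.9 FPKM in STAT6-null, 1.72 and 2.17 in T-bet-null, 1.55 and 2.07 in double-null and 8.62 and 8.97 in WT libraries. For both genes every STAT6-null library exceeded every other library. Their differences from WT were 1.75 ± 0.243 (adjusted p = 0.000186) and 1.29 ± 0.107 (adjusted p = 7.72e-06). Mt1, a zinc-binding metallothionein, stood at 39.9 and 42.8 FPKM in STAT6-null, 15.2 and 12.45 in T-bet-null, 19.5 and 27.8 in double-null and 19.6 and 17.5 in WT libraries (1.115).

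The remaining raised members, outside the rule for named genes, were lower in level. Kitl, the ligand of the receptor Kit, stood at 3.36 and 3.94 FPKM in STAT6-null, 0.4535 and 0.636 in T-bet-null, 0.931 and 1.01 in double-null and 0.818 and 0.834 in WT libraries (1.35). Scin, an actin-severing protein, averaged 6.61 ± 0.291 FPKM in STAT6-null and 2.75 ± 0.311 in WT cells, and Car2, a carbonic anhydrase, 5.825 ± 1.395 and 2.36 ± 0.37 (mean ± SD, n = 2 each). Mreg averaged 3.24 ± 1.77 FPKM in STAT6-null and 0.848 ± 0.325 in WT cells, with STAT6-null libraries at 4.49 and 1.99. The clone 4930503L19Rik (1.205) completed the set. The 2 genes lower in STAT6-null cells only were Cisd3, a mitochondrial iron-sulphur protein, and the gene model Gm12709. Cisd3 stood at 2.8 and 2.94 FPKM in STAT6-null, 7.92 and 7.43 in T-bet-null, 6.58 and 9.03 in double-null and 8.7 and 6.53 in WT libraries (-1.14 ± 0.145, adjusted p = 0.000106). Both genes had all 6 other libraries above the STAT6-null pair.

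Of the 14 genes higher in STAT6-null cells only, 11 were called lower in T-bet-null than in WT cells and 3 were not called. In double-null cells 8 of the 14 were called lower than in WT and 6 were not called. Over all genes tested 36.3% were lower than in WT in T-bet-null and 36.7% in double-null cells. The choice barred genes called higher than WT in either of these genotypes, so only a lower call or no call was possible. The effect of STAT6 loss can be read a second time where T-bet is missing, as double-null minus T-bet-null, which shares no library with STAT6-null minus WT. There, 6 of the 14 were called higher, 2 lower and 6 not called, with a median of 0.26 on the log2 scale, against 1.255 with T-bet intact. The choice required double-null cells to lie below STAT6-null cells and not to be called above WT. The smaller median thus follows in part from the choice. The interaction, that is the difference between the effects of STAT6 loss with and without T-bet, was called in 11 of the 14. In these the effect was always smaller or opposite without T-bet. Over all genes tested 57.3% had a called interaction, in either direction. The interaction reuses the STAT6-null and WT values by which these genes were chosen, so its sign follows in large part from the choice. Among the 421 rises shared by all 3 mutants it was called with the same sign in 408. The 3 of the 14 without a called interaction were Cxcr3 (interaction -0.12, adjusted p = 0.417 by limma), Mt1 (-0.395, adjusted p = 0.138) and Mreg (-0.43, adjusted p = 0.3). Cxcr3, named after its values were seen, also stood above T-bet-null in double-null cells, by 0.98 (adjusted p = 0.000103), at a level well under WT.

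The second set of changes was seen with and without T-bet. Its 29 raised genes were chosen as called higher in STAT6-null than in WT cells and where STAT6 loss was added to T-bet loss, with medians of 1.341 and 0.982 on the log2 scale. Gzmb, the gene of granzyme B, a protease of killer cells, led them at 138 and 135 FPKM in STAT6-null, 15.55 and 16.5 in T-bet-null, 109 and 197 in double-null and 13.1 and 12.9 in WT libraries. The 4 libraries without STAT6 lay above 100 FPKM and the 4 with STAT6 below 17. The difference from WT was 3.295 ± 0.211 (adjusted p = 1.81e-06), and the difference between the double-null and T-bet-null genotypes was 3.115 (adjusted p = 3.07e-05). With either double-null library left out, Gzmb was no longer placed in this set. Of 7 markers of NK and γδ T cells, Klrk1, Klrd1 and Il2rb are listed, while Ncr1, Klrb1c, Tcrg-C1 and Trdc are not. The 3 listed summed to 368 and 352 FPKM in STAT6-null, 286 and 264 in T-bet-null, 349 and 355 in double-null and 251 and 257 in WT libraries. The sums were larger without STAT6, by far less than Gzmb, and the T-bet-null sums also lay above WT. The part of such cells in Gzmb was not tested.

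A cluster of serpin genes on chr 12 rose together. Serpina3g, an inhibitor of cathepsins inside the cell, stood at 142 and 142.5 FPKM in STAT6-null, 26.4 and 26 in T-bet-null, 49.6 and 63.7 in double-null and 25.4 and 23.4 in WT libraries (difference from WT 2.50 ± 0.1, adjusted p = 2e-07). Its neighbour Serpina3f stood at 33.8 and 32.3 FPKM in STAT6-null, 4.25 and 3.995 in T-bet-null, 9.64 and 11.2 in double-null and 5.74 and 5.48 in WT libraries (2.36). Serpina3h and Serpina3i, outside the rule for named genes, averaged 5.06 ± 0.101 and 4.23 ± 0.0827 FPKM in STAT6-null cells, against 0.969 ± 0.0903 and 0.767 ± 0.0727 in WT. In all 4 genes the order was STAT6-null, then double-null, then the 2 genotypes that carry STAT6, with no overlap between the first and the second or between the second and the rest. The 4 genes are close copies lying between positions 104214544 and 104269509, and fragments could be split among them, so their separate levels are uncertain.

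Of the others, Bcl3, an atypical member of the inhibitor of NF-κB family that acts in the nucleus, stood at 29.9 and 27.7 FPKM in STAT6-null, 7.5 and 6.68 in T-bet-null, 20.6 and 27.7 in double-null and 6.08 and 5.33 in WT libraries (2.15 ± 0.126, adjusted p = 1.08e-06). Maf, an activator of Il10 and Il4, stood at 106 and 103.5 FPKM in STAT6-null, 39 and 37.8 in T-bet-null, 67 and 78.7 in double-null and 34 and 38 in WT libraries (1.52 ± 0.082, adjusted p = 7.51e-07). The STAT6-lacking libraries lay above the STAT6-bearing ones for both genes, and for Maf the STAT6-null libraries also lay above the double-null ones (0.52, adjusted p = 0.00327). Gbp5, a GTPase of the IFN-γ response, stood at 65.2 and 60.1 FPKM in STAT6-null, 17.1 and 16.9 in T-bet-null, 28.2 and 30.3 in double-null and 16 and 15.9 in WT libraries (1.91 ± 0.061, adjusted p = 9.01e-08). Gpm6b, a membrane glycoprotein, stood at 62 and 62.8 FPKM in STAT6-null, 12.15 and 12.65 in T-bet-null, 31.2 and 33.3 in double-null and 16.5 and 18.6 in WT libraries. Gpm6b was called higher than WT in STAT6-null cells (1.77) and lower in T-bet-null cells (-0.47, adjusted p = 0.000254).

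Further members of this set are given after their values were seen. Icam1, an adhesion molecule, averaged 83.15 ± 13.5 FPKM in STAT6-null and 28.3 ± 1.14 in WT cells (1.51). Entpd1, the ectoenzyme CD39 that breaks down ATP outside the cell, averaged 17.1 ± 0.346 and 7.36 ± 1.32 FPKM (1.12). Themis, an adaptor of T cell receptor signalling, averaged 29.6 ± 0.205 and 12.3 ± 1.81 FPKM (1.21). Gcnt1, an enzyme of branched O-glycans, averaged 43.7 ± 0.446 and 16.7 ± 1.18 FPKM (1.34), and Klrc1, the inhibitory receptor NKG2A, 4 ± 0.706 and 1.1 ± 0.132 (1.245; mean ± SD, n = 2 each, STAT6-null before WT throughout). Igj, the joining chain of antibodies, stood at 6.91 and 2.64 FPKM in STAT6-null, 0.16 and 0.142 in T-bet-null, 4.83 and 2.83 in double-null and 0.245 and 0.285 in WT libraries. The B cell marker sums of the same libraries were 8.09 and 3.26, 2.47 and 2.69, 3.07 and 2.15, and 7.57 and 4.80 FPKM. The STAT6-null library with more Igj had the larger sum, while the WT libraries had larger sums than the double-null ones and less Igj. The part of B cells in Igj was not tested. The other 14 were Arnt2, Gpr146, Olfr1033, Hpn, Gcg, Ifitm2, Ngly1, Wdr92, Pqlc1, Procr, Npas2 and the clones or models 5830415F09Rik, A130040M12Rik and Gm10684, with differences from 1.17 to 1.60. In 16 of the 29 genes STAT6-null cells were also called above double-null cells, and in 21 of the 29 both STAT6-null libraries exceeded all 6 others.

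**Figure D2:**
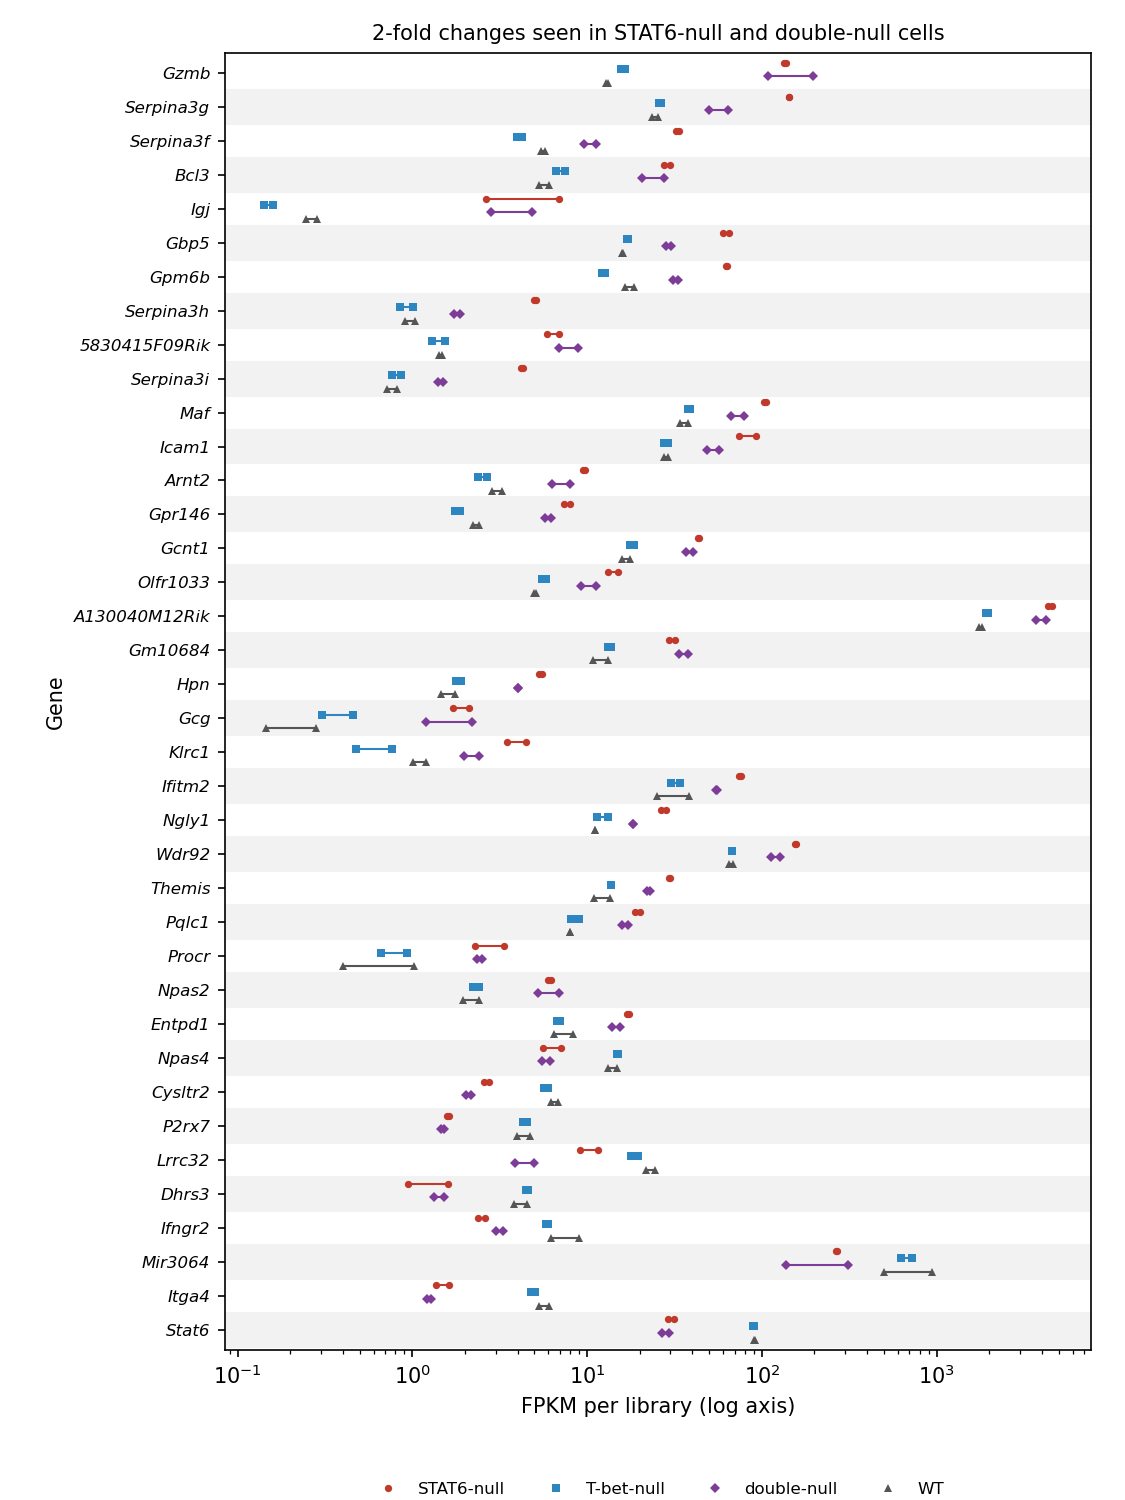
FPKM per library (log axis) of the 38 genes with a 2-fold change common to STAT6-null and double-null cells, ordered by the STAT6-null difference from WT; each point is a library and a line joins the 2 libraries of a genotype. For the upper 29 genes the STAT6-null and double-null points lie to the right of the T-bet-null and WT points, and for the lower 9 genes to the left.

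The 9 genes lower in both STAT6-lacking genotypes were Stat6 itself and 8 others. Itga4, the α4 integrin chain used in homing to inflamed tissue, stood at 1.62 and 1.36 FPKM in STAT6-null, 4.77 and 5.01 in T-bet-null, 1.21 and 1.28 in double-null and 5.33 and 6.07 in WT libraries (-1.425 ± 0.087, adjusted p = 1.36e-06). Ifngr2, the signalling chain of the IFN-γ receptor, stood at 2.6 and 2.38 FPKM in STAT6-null, 5.79 and 5.94 in T-bet-null, 2.99 and 3.29 in double-null and 9 and 6.21 in WT libraries (-1.28 ± 0.133, adjusted p = 3.09e-05). In both genes the 4 libraries without STAT6 lay below the 4 with it. Lrrc32, the surface protein GARP that holds latent TGF-β on regulatory T cells, stood at 11.5 and 9.17 FPKM in STAT6-null, 19.7 and 17.9 in T-bet-null, 4.96 and 3.89 in double-null and 24.6 and 21.7 in WT libraries (-1.10), and here double-null cells lay lowest. Mir3064, a hairpin of 67 bases on chr 11 (106782693-106782759), stood at 268 and 265 FPKM in STAT6-null, 625 and 722 in T-bet-null, 138 and 312 in double-null and 936 and 499 in WT libraries (-1.36, adjusted p = 0.00807, and 0.0723 without WT replicate 1). FPKM of so short a gene is a poor measure.

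The remaining 4, outside the rule for named genes, were Dhrs3, a retinal reductase, P2rx7, a receptor for ATP, Cysltr2, a leukotriene receptor, and Npas4, an activity-dependent transcription factor. They averaged 1.27 ± 0.463, 1.6 ± 0.0368, 2.67 ± 0.1335 and 6.37 ± 1.06 FPKM in STAT6-null cells, against 4.16 ± 0.516, 4.34 ± 0.52, 6.505 ± 0.442 and 14 ± 1.09 in WT (mean ± SD, n = 2 each). In all 4 the STAT6-lacking libraries lay below the STAT6-bearing ones. With T-bet missing, the median effect of STAT6 loss on the 9 genes was -1.23, beside -1.198 with T-bet intact. The 9 were chosen as called lower in both of these comparisons, so the likeness of the effects follows in part from the choice. The interaction was called by limma in 2 of the 9, Ifngr2 (0.555, adjusted p = 0.0324) and Lrrc32 (-0.77, adjusted p = 0.00505), beside 57.3% of all genes tested. This count is subject to the same choice.

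Promoter sequence was read for these sets as a description, with no test. STAT6 dimers are known to prefer the ends TTC and GAA with 4 bases between them, and other STATs prefer 3. Both spellings, TTCNNNNGAA and TTCNNNGAA, read the same on either strand, and they were searched from 250 bases before to 50 after each annotated start. A gene can have several starts, and it was counted once if any of them held the spelling. The promoters are those of RefSeq on GRCm38.p6, which held 8198 of the genes tested. The 4-base spacing was found in 6.58% of all these promoters and the 3-base spacing in 8.45%. Of the 9 genes lower in both STAT6-lacking genotypes 7 had a promoter in the table, and 3 of them held the 4-base spacing (42.9%) and 0 the 3-base spacing. Of the 29 higher genes 24 had a promoter, and 2 held the 4-base spacing (8.33%) and 7 the 3-base spacing (29.2%). Of the 14 genes higher in STAT6-null cells only 9 had a promoter, and 0 held the 4-base spacing and 1, Ifng, the 3-base spacing (11.1%). In the shared sets the 4-base spacing was in 7.10% of promoters of higher genes and 6.50% of lower ones, and the 3-base spacing in 10.9% and 8.52%.

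Matches that lie before the start of their window are shown for the sets common to both STAT6-lacking genotypes, since the shares of these sets stood farthest above that of all promoters. Each is printed 5′ to 3′ on the strand of the gene, with 20 bases on either side and the match in capitals. These are the 3 lower genes with the 4-base spacing.
Dhrs3 (chr4:144892938-144892987, plus strand): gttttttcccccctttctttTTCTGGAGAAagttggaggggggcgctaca
Ifngr2 (chr16:91546948-91546997, plus strand): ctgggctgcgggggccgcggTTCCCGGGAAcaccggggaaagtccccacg
Cysltr2 (chr14:73049218-73049267, minus strand): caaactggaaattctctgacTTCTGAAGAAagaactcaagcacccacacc
These are the higher genes with the 4-base spacing.
Gcnt1 (chr19:17356801-17356850, minus strand): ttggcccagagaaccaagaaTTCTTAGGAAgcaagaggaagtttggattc
Serpina3i (chr12:104263068-104263117, plus strand): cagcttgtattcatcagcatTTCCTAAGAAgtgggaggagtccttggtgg
These are higher genes with the 3-base spacing.
Gbp5 (chr3:142496862-142496910, plus strand): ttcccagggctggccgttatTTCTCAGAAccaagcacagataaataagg
Icam1 (chr9:21015878-21015926, plus strand): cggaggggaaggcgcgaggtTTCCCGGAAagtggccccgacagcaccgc
Serpina3f (chr12:104214403-104214451, plus strand): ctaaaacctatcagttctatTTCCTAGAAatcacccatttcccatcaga
Serpina3g (chr12:104236094-104236142, plus strand): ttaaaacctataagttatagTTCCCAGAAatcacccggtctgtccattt
Serpina3i (chr12:104263000-104263048, plus strand): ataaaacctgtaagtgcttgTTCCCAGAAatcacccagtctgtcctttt
Gpr146 (chr5:139380500-139380548, plus strand): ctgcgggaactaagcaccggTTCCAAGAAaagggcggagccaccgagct
Distances are to the start that defines the window, which need not be the outermost start of the gene. In Dhrs3, Gpr146 and Gcnt1 an earlier start is annotated, and these matches lie inside the annotated span of the gene, while Serpina3i is annotated from a position between its matches. The matches began 119, 91 and 133 bases before that start in Dhrs3, Ifngr2 and Cysltr2. In Gbp5 the match began 52 bases before the start, in Icam1 42 and in Serpina3g 33. In Serpina3f and Serpina3i the 3-base match began 121 and 102 bases before the start, and since the serpin genes are close copies their matches are not separate cases. Not shown are a second match of Gbp5, a second match of Gcnt1 and the match of Gzmb, 38 bases after its start. A match is a description of these letters, not a site.

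Upstream of STAT6, the receptor chains Il4ra and Il2rg were not called and several kinase genes were lower. Of 11 tested genes of the IL-4 receptor, JAK and STAT6 signalling list, 1 was higher, 6 were lower, Stat6 among them, and 4 were not called, where 34.9% of all genes were higher and 36.1% lower. Il4ra, the receptor chain that binds IL-4, stood at 45.65 and 41.5 FPKM in STAT6-null and 47.6 and 42.1 in WT libraries (-0.04, adjusted p = 0.645), and the shared chain Il2rg at 569 and 548 against 561 and 567 (-0.01, adjusted p = 0.826). The groups overlapped in both. The kinase genes Jak1 (-0.54), Tyk2 (-0.72) and Jak3 (-0.26) were lower, as were the phosphatase gene Ptpn6 (-1.05) and the adaptor gene Irs2 (-0.36). The Jak3 call was lost without STAT6-null replicate 2 (adjusted p = 0.0799). Pias1, a SUMO ligase of the PIAS family, was higher (0.23, and with cyclic loess normalization adjusted p = 0.0655), while Socs1, a feedback inhibitor, gave -0.03 (adjusted p = 0.79) and Ptpn11 -0.01 (adjusted p = 0.916). Against T-bet-null cells 2 of the 11 were lower, Stat6 (-1.53) and Jak1 (-0.26), and 3 were higher, Tyk2 (0.19), Ptpn6 (0.44) and Ptpn11 (0.23). Over all genes 14.9% were lower and 12.3% higher in this comparison.

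Genes of the response to IL-4 were lower than in WT or in T-bet-null cells more often than higher. Of 14 tested, 2 were higher than in WT, 7 lower and 5 not called, where 34.9% of all genes were higher and 36.1% lower. Their median was -0.22 on the log2 scale against -0.01 over all genes. Against T-bet-null cells 1 of the 14 was higher and 8 were lower, with a median of -0.574, where 12.3% of all genes were higher and 14.9% lower. Against double-null cells 4 were higher and 4 lower, with a median of 0.028, where 8.63% of all genes were higher and 11.3% lower. Gata3, the master factor of Th2 cells, stood at 62.3 and 57.9 FPKM in STAT6-null, 142 and 136 in T-bet-null, 74.2 and 76.4 in double-null and 71.9 and 78 in WT libraries. Gfi1, a repressor that supports Th2 growth, stood at 20.1 and 21 FPKM in STAT6-null, 77.2 and 78.1 in T-bet-null, 25.4 and 20.2 in double-null and 43.3 and 39.6 in WT libraries. Ccr4, a receptor of skin-homing Th2 cells, stood at 24.35 and 24.6 FPKM in STAT6-null, 95.45 and 94 in T-bet-null, 46.6 and 52.1 in double-null and 38 and 37.1 in WT libraries. In all 3 genes T-bet-null libraries were highest and STAT6-null libraries lay below both WT libraries. The differences of STAT6-null from T-bet-null cells were -1.19 (adjusted p = 3.6e-06), -1.87 (adjusted p = 3.11e-06) and -1.91 (adjusted p = 2.18e-07).

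A further 4 IL-4 response genes were called lower in all 3 mutants. Il17rb, the receptor chain for IL-25, stood at 0.192 and 0.3 FPKM in STAT6-null, 1.44 and 1.94 in T-bet-null, 0.694 and 0.628 in double-null and 5.08 and 4.1 in WT libraries (-2.16 ± 0.118, adjusted p = 8.13e-07), with the lowest values in STAT6-null cells. Ccr8 (-1.33), a chemokine receptor of Th2 cells, Ecm1 (-1.25), a secreted matrix protein, and Epas1 (-0.50), the factor HIF-2α, also fell, and the Epas1 call was lost with cyclic loess normalization (adjusted p = 0.0927). Cish (0.53), a feedback inhibitor of cytokine receptors, and Asb2 (0.88), a ubiquitin ligase subunit, were the 2 that rose. Il1rl1, the IL-33 receptor, stood at 17.2 and 16.8 FPKM in STAT6-null, 29.1 and 29.6 in T-bet-null, 23.7 and 24 in double-null and 17.2 and 18 in WT libraries, the highest STAT6-null and the lowest WT value lying side by side (-0.05, adjusted p = 0.414; 0.023 with cyclic loess and 0.0436 with quantile normalization). Pparg, at 0.243 and 0.11 FPKM in STAT6-null and 0.332 and 0.227 in WT libraries, was near the lower limit of the table, against 1.41 and 1.93 in T-bet-null libraries. Xbp1 (-0.07, adjusted p = 0.426), Il4ra and Nfil3 (0.08, adjusted p = 0.2) were not called.

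Type 2 cytokine genes were mostly higher than in WT, mostly lower than in T-bet-null cells and split by gene against double-null cells. Their medians against WT were 1.282 in STAT6-null, 2.524 in T-bet-null and 1.251 in double-null cells. Of 8 tested, 6 were higher in STAT6-null than in WT cells and 0 lower, 4 of them shared with both other mutants, where 34.9% of all genes were higher. Against T-bet-null cells 1 of the 8 was higher and 5 were lower, beside 12.3% and 14.9% of all genes. Against double-null cells 4 of the 8 were higher and 4 lower, beside 8.63% and 11.3% of all genes. The 2 without a call, Il5 and Areg, had positive differences (0.07 and 0.12), so 0 were lower at an unadjusted p under 0.05 as well. Kit, the listed 1 of the mast cell and basophil markers, stood at 32.5 and 34.0 FPKM in STAT6-null, 8.67 and 8.11 in T-bet-null, 56.7 and 62.9 in double-null and 18.1 and 18.6 in WT libraries, and its part in the cytokine values was not tested. Il3, a growth factor of mast cells and basophils, stood at 125 and 133 FPKM in STAT6-null, 81.35 and 79.6 in T-bet-null, 71.8 and 38.7 in double-null and 24.6 and 19.7 in WT libraries (2.50 ± 0.227, adjusted p = 1.35e-05). Csf2, which encodes GM-CSF, stood at 104 and 89.4 FPKM in STAT6-null, 23.45 and 23.5 in T-bet-null, 22.7 and 18.7 in double-null and 56.25 and 46.2 in WT libraries (0.91 ± 0.116, adjusted p = 0.000111). Both genes were highest in the STAT6-null libraries, and Csf2 was lower than WT in the T-bet-lacking ones.

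Il5, the growth factor of eosinophils, set the single mutants apart, at 31.7 and 23.4 FPKM in STAT6-null, 272 and 286 in T-bet-null, 54.05 and 54.6 in double-null and 32.1 and 21 in WT libraries. STAT6-null and WT overlapped, and STAT6-null cells differed from T-bet-null cells by -3.31 (adjusted p = 5e-06). Il31, the itch cytokine, stood at 1.62 and 2.75 FPKM in STAT6-null, 12.6 and 12.2 in T-bet-null, 4.55 and 5.07 in double-null and 1.28 and 1.51 in WT libraries. Its difference from WT was 0.39 (adjusted p = 0.0396), a call lost without either WT library, either T-bet-null library or STAT6-null replicate 2, and with the 4 STAT6-null and WT libraries alone in the fit (adjusted p = 0.0526 to 0.306). Il4, Il13 and Il9 were all raised against WT (3.09, 1.66 and 2.10) and all lower than in T-bet-null cells, with differences of -0.715 (adjusted p = 0.012), -0.91 (adjusted p = 0.000161) and -0.66 (adjusted p = 0.0074). Areg, which encodes amphiregulin, stood at 249 and 264.5 FPKM in STAT6-null and 241 and 230.3 in WT libraries, and at 568 and 681 in double-null libraries, the 1 mutant in which it was called (1.40 against WT, adjusted p = 8.69e-07; T-bet-null 0.06, adjusted p = 0.551).

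**Figure D3:**
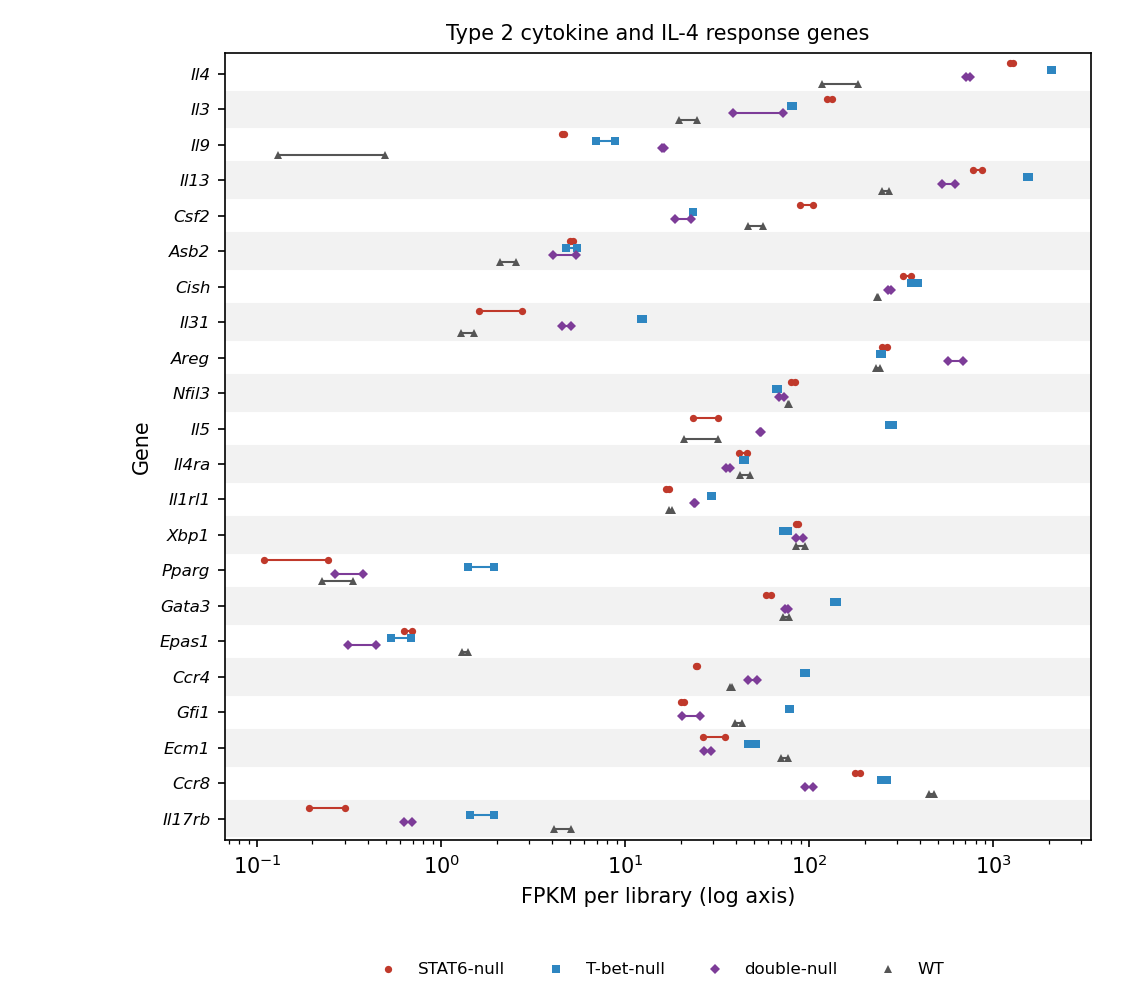
FPKM per library (log axis) of the 22 tested type 2 cytokine and IL-4 response genes, ordered by the STAT6-null difference from WT; each point is a library and a line joins the 2 libraries of a genotype. T-bet-null points lie farthest to the right for Il4, Il13, Il31, Il5, Il1rl1, Pparg, Gata3, Ccr4 and Gfi1, where the STAT6-null points lie to their left.

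Th1 genes were higher more often than lower in STAT6-null cells. Of 21 tested genes, 14 were higher than in WT and 5 lower, beside 34.9% and 36.1% of all genes. Against T-bet-null cells, in a comparison without WT, 18 were higher and 2 lower, and against double-null cells 11 were higher and 1 lower, where 12.3% and 8.63% of all genes were higher in these comparisons. Zeb2, a transcription factor of terminal effector cells, stood at 9.35 and 9.87 FPKM in STAT6-null, 5.27 and 5.44 in T-bet-null, 11.7 and 13.45 in double-null and 0.535 and 0.6035 in WT libraries (2.76 ± 0.08, adjusted p = 6.47e-08), and it was raised in all 3 mutants. Havcr2, the checkpoint receptor TIM-3, was 5.6 times its WT mean. Both chains of the IFN-γ receptor were lower, with -1.38 for Ifngr1 and -1.28 for Ifngr2, and Ccl5, a chemokine gene named after its values were seen, gave -0.955 (adjusted p = 0.00107). The 21 genes include Tbx21, the deleted gene of the other genotypes. Of 16 tested cytotoxic granule genes 7 were higher and 7 lower than in WT, near the shares of all genes, and 10 were higher than in T-bet-null cells, beside 12.3% of all genes.

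By their medians, interferon response genes were lower in both T-bet-lacking genotypes than in either STAT6-null or WT cells. The medians against WT were -0.139 in STAT6-null, -1.002 in T-bet-null and -0.894 in double-null cells. Of 28 tested, 8 were higher and 11 lower in STAT6-null than in WT cells, beside 34.9% higher and 36.1% lower over all genes. Against T-bet-null cells 21 of the 28 were higher and 0 lower, with a median of 0.88 on the log2 scale against -0.03 over all genes. Against double-null cells 22 were higher and 0 lower, with a median of 0.69 against -0.01. Over all genes 12.3% were higher in the first comparison and 8.63% in the second. At an unadjusted p under 0.05, 0 of the 28 were lower than in T-bet-null and 0 lower than in double-null cells by limma. The differences from T-bet-null cells were 2.35 for Irgm1 and 1.72 for Igtp, GTPases that act against microbes inside cells, and 1.44 for Irf1, a transcription factor induced by IFN-γ. Against WT the same genes gave 0.655 (adjusted p = 0.000121), 0.34 (adjusted p = 0.00342) and 0.18 (adjusted p = 0.145). Irgm1, Igtp and Irf1 were chosen after their values were seen, and their positive differences from WT are not typical of the list. More of the 28 were lower than in WT (11) than higher (8). The RNA sensor Ifih1 gave 1.465 against WT and 0.25 against T-bet-null cells (adjusted p = 0.0615), where it was not called.

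MHC class I presentation genes were also higher than in T-bet-null cells more often than lower, with a smaller median of 0.337. Their medians against WT were -0.102 in STAT6-null, -0.5 in T-bet-null and -0.501 in double-null cells. Of 19 tested, 4 were higher and 8 lower than in WT, the 8 being near the 36.1% of all genes. In the same list 14 were higher and 0 lower than in T-bet-null cells and 11 higher and 2 lower than in double-null cells, beside 12.3% and 8.63% of all genes higher. At an unadjusted p under 0.05, 0 of the 19 were lower than in T-bet-null cells by limma. Tap1, a peptide transporter subunit chosen after its values were seen, was 1.26 above T-bet-null cells and 0.395 above WT (adjusted p = 0.00291). The immunoproteasome subunit genes Psmb8 and Psmb10 were lower than in WT (-0.78 and -0.88) and were not called against T-bet-null cells (0.15, adjusted p = 0.259; 0.23, adjusted p = 0.191). H2-Q7, a class Ib gene with near-identical relatives, gave -0.53 against WT (adjusted p = 0.0454), a call lost in 10 of the alternatives, with adjusted p up to 0.187.

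The shared changes were not of equal size in the 3 mutants. Among the 421 shared rises the median size was 1.289 in STAT6-null, 1.22 in T-bet-null and 1.421 in double-null cells, and among the 552 shared falls 1.24, 1.01 and 1.25. In 542 of the 973 the change was at least 2-fold in each mutant. The effect of STAT6 loss where T-bet is missing, double-null minus T-bet-null, had a median of 0.184 over the 421 and -0.239 over the 552. In 198 of the 421 it was called higher and in 22 lower, and in 255 of the 552 it was called lower and in 16 higher. Over all genes tested 16.4% were higher and 16.2% lower in this comparison. Calls of both genotypes against WT entered the choice of the shared genes, so these counts are a description. STAT6-null cells were called above double-null cells in 71 of the 421 rises and below them in 147. Among the 552 falls they were called below double-null cells in 75 and above them in 46. A smaller set of 114 shared changes (11.7%) went further in STAT6-null cells than in both other mutants, 55 of them upward and 59 downward, a division made after the values were seen.

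Il10, an inhibitor of inflammation, was among these, at 2462 and 2546 FPKM in STAT6-null, 430.0 and 428.5 in T-bet-null, 1338 and 1631 in double-null and 304 and 325 in WT libraries. No groups overlapped, and the STAT6-null libraries lay above double-null ones by 0.76 (adjusted p = 0.000777). Of 15 tested genes of the list of Il10 and its regulators, 10 were higher than in WT and 2 lower, and 11 were higher and 1 lower than in T-bet-null cells, beside 34.9% and 12.3% of all genes higher. Prdm1, which encodes Blimp-1 and was named after its values were seen, gave 1.42 against WT and 1.24 against T-bet-null, and Il21, which promotes Il10, stood at 1467 and 1516 FPKM in STAT6-null, 521 and 534 in T-bet-null, 1130.0 and 1134 in double-null and 335 and 387 in WT libraries (2.05). Batf, an AP-1 family factor, reached 229 and 225 FPKM in STAT6-null and 75.2 and 69.2 in WT libraries and did not differ by the test between STAT6-null and double-null cells (0.05, adjusted p = 0.688). Il27ra, the receptor for IL-27, an inducer of Il10, fell by 1.05 on the log2 scale.

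Coinhibitory receptors included further members of the deeper set. Of 15 tested, 9 were higher and 5 lower than in WT, the 5 being near the 36.1% of all genes lower and the 9 standing beside 34.9% higher. Tigit, which restrains T cells through CD155, stood at 425 and 426 FPKM in STAT6-null, 192 and 183 in T-bet-null, 291 and 306 in double-null and 148 and 153 in WT libraries (1.49 ± 0.054, adjusted p = 1.32e-07). Lag3, which binds MHC class II, stood at 133 and 118 FPKM in STAT6-null, 52.2 and 47.4 in T-bet-null, 52.7 and 76.3 in double-null and 33.5 and 36 in WT libraries (1.82). STAT6-null libraries were above all others for both. Cd160 was highest in T-bet-null cells, at 18.5 and 16.4 FPKM in STAT6-null, 28 and 27.2 in T-bet-null, 6.76 and 6.43 in double-null and 4.44 and 5.57 in WT libraries.

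**Figure D4:**
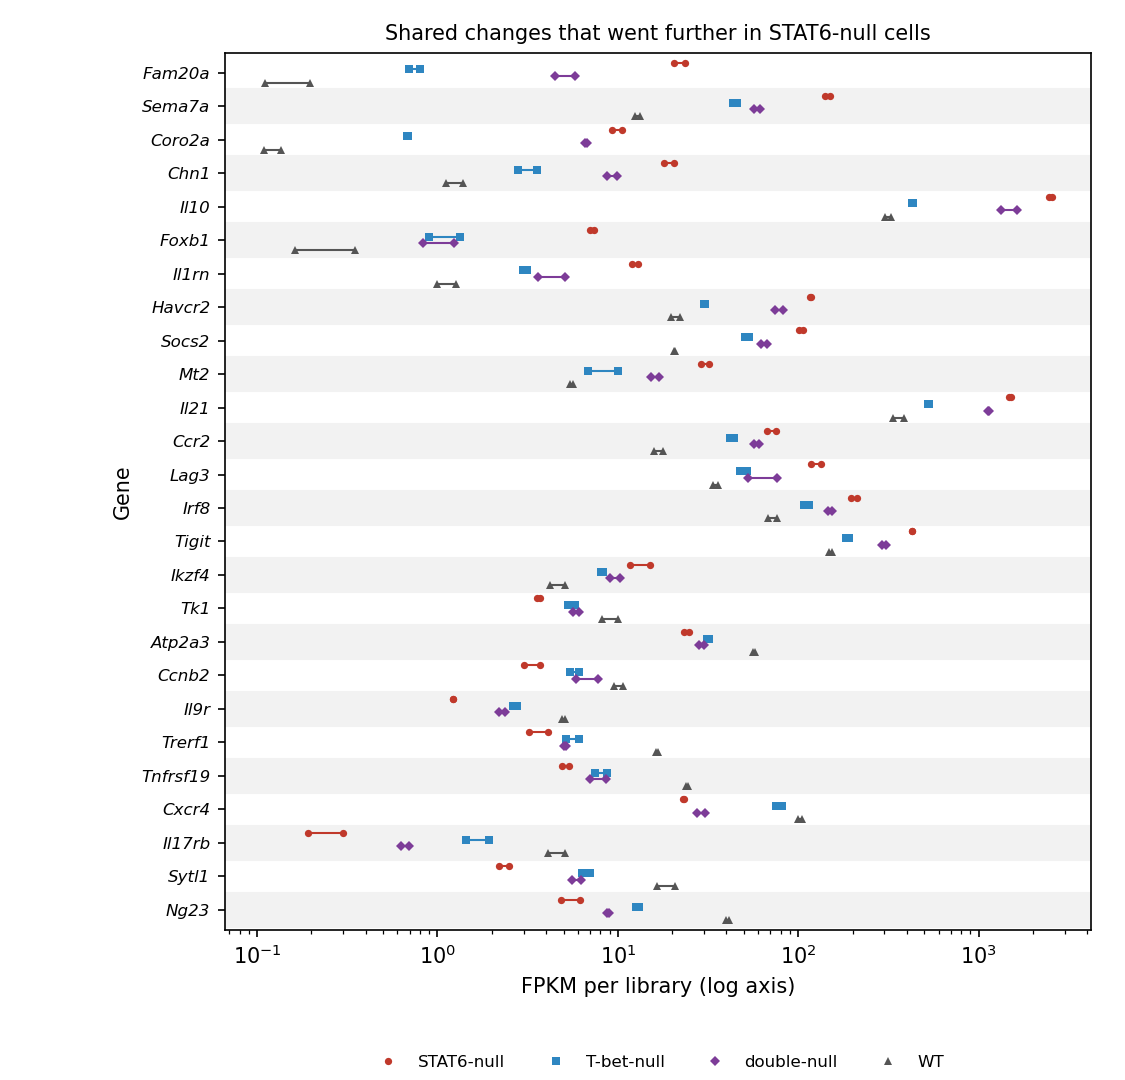
FPKM per library (log axis) of 26 named genes whose shared change went further in STAT6-null cells than in both other mutants, a set chosen after the values were seen; each point is a library and a line joins the 2 libraries of a genotype. WT points lie at the opposite end from the STAT6-null points, with T-bet-null and double-null points between.

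Among the further deeper changes, Sema7a, a semaphorin that acts on monocytes, stood at 150.3 and 141 FPKM in STAT6-null, 45.7 and 43.5 in T-bet-null, 56.8 and 61 in double-null and 12.4 and 13.3 in WT libraries (3.41 ± 0.063, adjusted p = 1.59e-08). Fam20a, a secreted pseudokinase, stood at 20.6 and 23.4 FPKM in STAT6-null, 0.801 and 0.694 in T-bet-null, 4.49 and 5.78 in double-null and 0.111 and 0.196 in WT libraries, and Coro2a, an actin-binding coronin, at 10.6 and 9.32, 0.687 and 0.675, 6.79 and 6.575 and 0.136 and 0.11 in the same order of genotypes. For Fam20a and Coro2a the WT level lay close to the lower limit of the table, 0.1 FPKM. Il1rn, the antagonist of the IL-1 receptor, averaged 12.5 ± 0.621 FPKM in STAT6-null and 1.13 ± 0.195 in WT cells. Downward, Cxcr4, the receptor for CXCL12, stood at 22.8 and 23.2 FPKM in STAT6-null, 80.8 and 75.2 in T-bet-null, 30.5 and 27.3 in double-null and 105 and 99.5 in WT libraries (-2.10 ± 0.066, adjusted p = 8.71e-08). Cxcr4 fell less in T-bet-null cells (-0.38), and STAT6-null cells lay below them (-1.72, adjusted p = 6.08e-07). Il9r, the receptor for IL-9, averaged 1.22 ± 0.00311 FPKM in STAT6-null and 4.99 ± 0.123 in WT cells.

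Genes of early activation, quiescence and division were mostly lower in STAT6-null than in WT cells, where 36.1% of all genes were lower. AP-1, EGR, NR4A and DUSP genes, the immediate early response, were higher in 3 and lower in 19 of 24, led by Fosb (250.3 and 219 FPKM in STAT6-null and 1002 and 888 in WT libraries) and Egr3 (254 and 207 FPKM in STAT6-null and 878 and 959.7 in WT libraries). Against T-bet-null cells 8 of the 24 were higher and 8 lower, beside 12.3% and 14.9% of all genes. Quiescence factors were higher in 4 and lower in 16 of 20, among them Klf4 (-2.39) and Mxd4 (-2.72), with Slfn2 higher (1.11). Cell cycle and DNA replication genes were higher in 2 and lower in 28 of 34. The median differences from WT were -0.804, -0.587 and -0.774 for the AP-1 list in STAT6-null, T-bet-null and double-null cells. In the same order they were -0.818, -0.72 and -0.706 for quiescence factors and -0.62, -0.294 and -0.146 for cell cycle genes. All 3 lists thus had negative medians in every mutant. The cell cycle list was also lower against both other mutants, with 2 higher and 16 lower against T-bet-null and 1 higher and 25 lower against double-null cells, beside 14.9% and 11.3% of all genes lower. Ccnb2, a mitotic cyclin, averaged 3.36 ± 0.46 FPKM in STAT6-null, 5.77 ± 0.4465 in T-bet-null, 6.81 ± 1.3 in double-null and 10.1 ± 0.795 in WT cells, and Tk1, a thymidine kinase, 3.64 ± 0.1095, 5.55 ± 0.367, 5.86 ± 0.356 and 9.08 ± 1.28 in the same order of genotypes (mean ± SD, n = 2 each). Cdk6, a kinase of early G1, was 1 of the 2 that rose, at 25.7 and 23.4 FPKM in STAT6-null and 6.11 and 6.73 in WT libraries (1.78).

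Genes of protein synthesis, breakdown and respiration differed by list, to be read beside 34.9% of all genes higher and 36.1% lower. Cytosolic ribosomal protein genes, matched by symbol, were higher in 2 and lower in 72 of 81, with a median of -0.30 on the log2 scale, and without STAT6-null replicate 1 the number lower was 46. Mitochondrial ribosomal protein genes were higher in 51 and lower in 7 of 76 (median 0.35), and proteasome subunit genes higher in 29 and lower in 2 of 37 (median 0.357). In T-bet-null and double-null cells the medians against WT were -0.21 and -0.167 for the cytosolic ribosomal list. They were 0.276 and 0.477 for the mitochondrial ribosomal list and 0.285 and 0.428 for the proteasome list. The medians of these 3 lists thus had the same sign in all 3 mutants. Oxidative phosphorylation genes were higher in 5 and lower in 31 of 77 (median -0.17), a lower share near that of all genes, and without WT replicate 1 the number lower was 20. Genes of the ATF4 response, amino acids and tRNA charging were higher in 19 and lower in 6 of 31, led by Tars, a tRNA synthetase gene, at 54.4 and 52.7 FPKM in STAT6-null and 18.1 and 18.1 in WT libraries (1.51 ± 0.048, adjusted p = 8.71e-08). Heat shock and chaperone genes were higher in 14 and lower in 2 of 20, with Hspa1a and Hspa1b, near-identical copies, at 1.19 and 1.11, and Hspa8 among the 2 that fell (-0.73). The ATF4 and heat shock lists were also raised in the other mutants. Their medians against WT were 0.438 and 0.526 in T-bet-null and 0.512 and 0.513 in double-null cells. Against T-bet-null cells 9 of the 20 heat shock genes were lower in STAT6-null cells, and against double-null cells 7 were, beside 14.9% and 11.3% of all genes lower. Against double-null cells 17 of the 31 ATF4 genes, 15 of the 76 mitochondrial ribosomal genes and 14 of the 77 oxidative phosphorylation genes were also lower in STAT6-null cells.

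**Figure D5:**
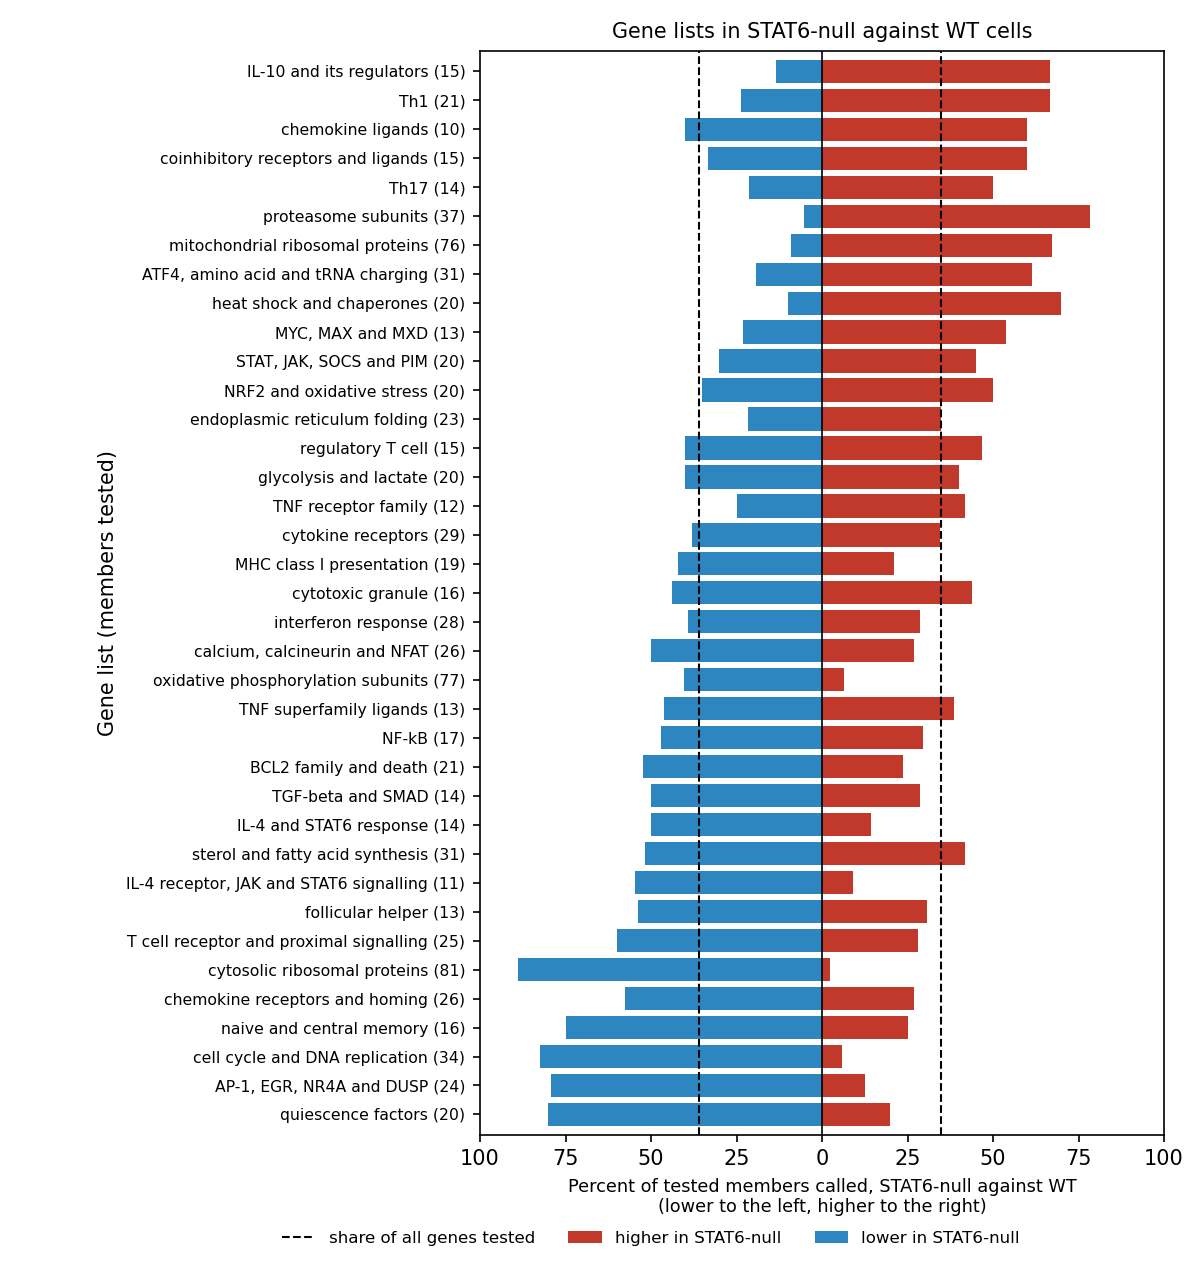
Percent of the tested members of each gene list called lower (left) and higher (right) in STAT6-null against WT cells by limma, for the 37 lists with at least 10 members tested and no marker lists of other cells, ordered by the median difference; dashed lines mark the shares over all genes tested, 36.1% lower and 34.9% higher. Of these, the lists of IL-10 regulators and Th1 genes stand at the top, and AP-1 and quiescence genes at the bottom.

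Th17 genes stood higher in double-null than in STAT6-null cells. Of 14 tested, 7 were higher and 3 lower in STAT6-null than in WT cells, beside 34.9% and 36.1% of all genes. Against double-null cells 2 were higher and 12 lower, beside 8.63% and 11.3% of all genes. Ccl20, the ligand of CCR6, stood at 371 and 452 FPKM in STAT6-null, 178 and 178 in T-bet-null, 1313 and 1424 in double-null and 78.15 and 73.3 in WT libraries, and Ahr, a sensor of aromatic ligands, at 44.8 and 46.9, 34.4 and 34.05, 72.15 and 71.6 and 17.6 and 20.7 in the same order of genotypes. Both were higher in STAT6-null cells than in WT (2.42 and 1.22) and lower than in double-null cells (-1.74, adjusted p = 7.49e-06, and -0.64, adjusted p = 0.000647). Tmem176b, a membrane protein gene found in Th17 cells, was lower in STAT6-null than in WT cells (-1.09) and higher in double-null cells (0.67, adjusted p = 0.00105).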

How the data were processed

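FPKM values were deposited by the authors as 1 table of 11906 lines, which per the submitters' processing notes rests on Cufflinks and the build mm10. The sources used here name no aligner, tool version or strandedness. The lowest value is 0.1 FPKM, and a gene not listed is not a measured 0. Where 43 symbols stood on more than 1 line, the line of highest mean was used (65 lines set aside), leaving 11841 symbols. Each column was matched to its sample by the label's description. Genes with at least 1 FPKM in 2 libraries were transformed to log2(FPKM + 1) and fitted with limma 3.58.1 (R 4.3.3), with a mean per genotype over all 8 libraries, an intensity trend, 4 residual degrees of freedom, two-sided tests and Benjamini-Hochberg adjustment within each comparison. The script was tested on simulated data. FPKM are not counts, so no count test was run. Depth was compared from the steps of 503 genes under 0.5 FPKM with a tolerance of 0.001 (log2); 25.6% to 31.6% of ratios fell on simple fractions, against at most 3.98% at other shifts. Loci and promoters come from RefSeq, GRCm38.p6; 10575 symbols matched directly and 1164 by an older name. Tables were handled in Python 3.11.15 with pandas 2.3.3.

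Named genes were 5 markers, the 8 highest and 8 lowest of the genes changed in STAT6-null cells only and the 5 highest and 5 lowest of each other class (with at least 5 FPKM on average in STAT6-null or WT), every tested member of the 3 IL-4 and type 2 lists, and up to 4 called members of each other list. Members, lists and tests were chosen with earlier results of these data known, so lists are described by counts and medians without a test. Alternatives were other pseudocounts, filters and normalizations, no intensity trend, a replicate block, the 4 STAT6-null and WT libraries alone, and each library left out. Some results on single genes are not reported here.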

Additional observations from a re-analysis of the deposited data

Results flagged for a closer look

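Among the 215 named genes, 12 had effects of STAT6 loss that limma called in opposite directions with and without T-bet and a called interaction, with no overlap of libraries in either comparison. Over all genes tested 57.3% had a called interaction, and the share that also had opposite calls was not counted. Many named genes were chosen by their difference from WT, which enters the interaction, so the 12 are a description. Type 2 cytokine genes were 3 of the 12. For Il4 the interaction was -4.595 on the log2 scale, from 3.09 for STAT6-null minus WT and -1.5 for double-null minus T-bet-null. For Il13 it was -3.087 (1.66 and -1.43) and for Il31 -1.592 (0.39 and -1.20). The Il31 call against WT was lost without either WT library. Cd160, a coinhibitory receptor, gave -3.538 (1.63 and -1.91). Ifng gave -2.603 (1.67 and -0.93) and Ccl3 -2.452 (1.48 and -0.97). Smaller negative interactions were those of Tnfrsf14, a TNF receptor family member, at -1.001 (0.65 and -0.35), and of Cish at -0.98 (0.53 and -0.455).

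In 4 genes STAT6 loss lowered the level with T-bet and raised it without. The interaction was 2.3 for Tmem176b (-1.09 and 1.21), 1.671 for Gm12709 (-1.195 and 0.48), 1.239 for Birc5, an inhibitor of apoptosis (-0.86 and 0.375), and 1.214 for Herpud1, a gene of endoplasmic reticulum stress (-0.57 and 0.65). The WT libraries enter each of these interactions, and their distance from all 3 mutants moves with them. Its part was not tested. Groups of 2 libraries are too small for a check of outlying samples.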

How the results depend on the processing

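Of 3842 values of the 215 named genes over 18 alternatives, 3818 kept their direction and their side of the threshold, 22 lost the call and 2 gained it, with no reversal. Of 1368 list counts 20 moved by more than 1.5 times. The median of all genes lay between -0.026 and 0.054 on the log2 scale in every alternative, the highest being at a filter of 5 FPKM. The 38 genes common to both STAT6-lacking genotypes and the 16 of STAT6-null cells only rest on several thresholds. Ifng, Tbx21, Ccl1, Ccl3, Ccl4, Iigp1, Ly6a, Stat6, Maf, Gbp5 and Itga4 kept their class in all 17 alternatives that include every genotype, while Mreg kept it in 6 of 16 and Lrrc32 in 10.

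Called lower genes numbered 2449 at a filter of 5 FPKM, where fewer genes are tested. At a pseudocount of 0.1, which gives low genes larger differences, 1055 genes were at least 2-fold lower, 965 of them shared, 33 in both STAT6-lacking genotypes and 10 in STAT6-null cells only, and at a pseudocount of 0.5 the second of these sets held 17. With 1 library left out at a time, genes lower in STAT6-null cells only numbered 2 to 4 (without STAT6-null replicate 2) and those lower in both genotypes 5 (without STAT6-null replicate 2) to 14 (without WT replicate 2). Genes called lower ranged from 3052 (without WT replicate 1) to 3777. Genes at least 2-fold changed against WT and called the opposite way in T-bet-null cells numbered 15, all higher, and 9 with cyclic loess; with a library left out 9 (without WT replicate 1) to 18 were higher and 0 to 1 lower. The count of such genes that were lower, 0 as reported, was 4 at a pseudocount of 0.1 and 1 at 0.5, with quantile normalization and with cyclic loess. The cause of the changes by normalization was not tested.

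With the replicate number as a block, 3537 genes were higher and 3682 lower, and classes held 14 and 2 genes (STAT6-null only) and 29 and 9 (both). Deviations of same-numbered libraries had r of -0.09 to 0.091 between genotypes, so no strong common effect of the replicate number was seen. The labels do not say whether same-numbered libraries were prepared together, and a low r cannot settle it. Depth per library is known only in relative terms.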
